A study of Mus musculus with 12 samples.

Results

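The genes described here are 40 mouse genes of the antioxidant defence, taken by symbol from a table of 23184 genes: the NRF2 pathway, glutathione synthesis and glutathione transferases, glutathione peroxidases, thioredoxins, glutaredoxins, peroxiredoxins, superoxide dismutases and catalase. They were chosen by name and not by their measured values, and all 40 were in the table. The RNA-seq data come from HL-1, a cell line made from mouse atrial heart muscle, in 12 libraries that form 3 groups of 4, and the stated purpose was to find genes related to the expression of Wdr62, whose protein acts at spindle poles. RE cells were knockdown cells that in addition received the virus pCDH-WDR62-WT-flag, which carries tagged wild-type WDR62. KD cells received a virus with a CRISPR guide against Wdr62 and carry the genotype label WDR62-. CON cells received the lentiCRISPRv2 and pCDH vectors and carry the genotype label WT. All cells were grown with 10% fetal bovine serum. The labels state the pCDH vector for RE and CON and not for KD, and they do not say whether the lines are clones or pools, or from which species the WDR62 construct was taken.

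NRF2, encoded by Nfe2l2, is a transcription factor that KEAP1 marks for degradation in unstressed cells; oxidants and electrophiles modify KEAP1, NRF2 accumulates, pairs with small MAF proteins and binds antioxidant response elements near its target genes. Glutathione is a cysteine-containing tripeptide that peroxidases use to reduce peroxides and that transferases attach to electrophiles, while thioredoxin and glutaredoxin reduce disulphides in proteins and peroxiredoxins. In heart muscle cells, which hold many mitochondria, superoxide dismutases, peroxiredoxins and glutathione peroxidases are the known routes for disposing of superoxide and hydrogen peroxide.

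Of the 40 genes, 34 have a promoter in the RefSeq table for GRCm38.p6, each covering 250 bases before to 50 after a gene's start; Hmox1, Gclc, Gsr, Gsta4, Prdx6 and Sod3 were not among them. The core of the antioxidant response element, TGACNNNGC, was searched on both strands. It occurred in at least 1 promoter of 10 of the 34 genes (29.4%) and of 14% of the 27025 genes in the table, or, counted over promoters, in 10 of 42 (23.8%) and in 12.4% of all 32851. The 10 genes were Gsta3, Mgst1, Gstm5, Nfe2l2, Srxn1, G6pdx, Gclm, Txnrd1, Prdx1 and Sod1. Of these, Gsta3, Mgst1 and Gstm5 had an adjusted p below 0.05 in a comparison below, so their whole promoters are shown, 5′ to 3′ on the strand of the gene, with the match in capitals. They lie at chr1:21240335-21240634, chr6:138140277-138140576 and chr3:107895604-107895903, all on the plus strand of GRCm38.p6.
Gsta3: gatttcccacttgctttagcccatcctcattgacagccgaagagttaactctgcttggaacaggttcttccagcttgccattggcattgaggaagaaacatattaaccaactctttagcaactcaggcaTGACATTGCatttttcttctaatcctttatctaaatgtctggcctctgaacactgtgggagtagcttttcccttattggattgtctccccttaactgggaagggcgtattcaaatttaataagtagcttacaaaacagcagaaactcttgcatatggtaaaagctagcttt
Mgst1: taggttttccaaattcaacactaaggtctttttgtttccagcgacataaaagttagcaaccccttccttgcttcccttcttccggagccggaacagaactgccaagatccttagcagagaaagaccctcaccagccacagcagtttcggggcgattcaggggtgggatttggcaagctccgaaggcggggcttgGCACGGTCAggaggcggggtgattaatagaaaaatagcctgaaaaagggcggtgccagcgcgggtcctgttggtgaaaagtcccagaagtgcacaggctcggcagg
Gstm5: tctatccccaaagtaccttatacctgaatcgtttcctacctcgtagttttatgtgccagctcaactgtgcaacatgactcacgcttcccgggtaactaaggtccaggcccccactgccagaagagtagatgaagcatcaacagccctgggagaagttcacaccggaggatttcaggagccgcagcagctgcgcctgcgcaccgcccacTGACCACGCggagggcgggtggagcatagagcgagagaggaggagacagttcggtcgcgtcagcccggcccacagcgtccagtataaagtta

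The match reads on the gene's own strand in Gsta3 and Gstm5, 121 and 42 bases before the start, and on the opposite strand in Mgst1, 56 bases before it. The matches of the other 7 genes are shown with 10 bases on either side, again on the gene's strand with the match in capitals, to let the letters around the core be compared. They lie at chr2:75704885-75704913 (Nfe2l2, minus strand), chr2:152105542-152105570 (Srxn1, plus), chrX:74428919-74428947 (G6pdx, minus), chr3:122245413-122245441 (Gclm, plus), chr10:82859104-82859132 (Txnrd1, plus), chr4:116685456-116685484 (Prdx1, plus) and chr16:90220696-90220724 (Sod1, plus).
Nfe2l2: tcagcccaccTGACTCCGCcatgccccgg
Srxn1: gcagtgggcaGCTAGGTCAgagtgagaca
G6pdx: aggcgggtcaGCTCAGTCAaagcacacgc
Gclm: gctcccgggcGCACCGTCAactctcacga
Txnrd1: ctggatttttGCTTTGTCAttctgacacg
Prdx1: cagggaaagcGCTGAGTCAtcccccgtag
Sod1: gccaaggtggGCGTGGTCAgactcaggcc
A match is a description of letters and not of binding, and the window around the start of Nqo1, a known NRF2 target, held no match to these letters.

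All levels are TPM, a unit that scales transcript abundance for length and gives every library the same total, so that depth is unknown. Fold changes are log2 differences after adding 1 TPM, each given ± its standard error (SE), and mean levels are given ± SD over 4 libraries. A gene is said to have risen or fallen where its adjusted p from limma was below 0.05 among 11774 genes tested. In bulk RNA, fewer cells of a type and less RNA per cell cannot be told apart. The targeted gene Wdr62 had 1.47, 0.771, 0.827 and 1.99 TPM in RE, 1.40, 0.944, 1.37 and 0.881 in KD and 7.46, 6.61, 6.501 and 3.38 in CON, and every CON library was above all others. KD differed from CON (log2 fold change -1.67 ± 0.25, adjusted p = 0.000921, exact permutation p = 0.0286, the smallest that 4 against 4 allows), while RE differed from KD by 0.05 (95% interval -0.48 to 0.58). Of 11 heart muscle markers, 8 were below 1 TPM in every library and 3 of these (Myl7, Actc1 and Actn2) were listed at 0 throughout. Thus most defining markers of the labelled cell type were low or listed at 0, while Tnnt2 had 12.9 to 26.7 TPM. Col3a1 made up most of the fibroblast sums, with 1190 to 2007 TPM in RE, 2248 to 3455 in KD and 2148 to 3455 in CON. The 7 fibroblast markers summed to 1559 to 2524 TPM in RE, 2947 to 4246 in KD and 2751 to 4260 in CON. Lum was listed at 0. Of 5 tested, 2 were lower in KD than in CON, 2 lower in RE than in KD and 4 lower in RE than in CON. The shares of all genes lower were 3.61%, 0.858% and 3.63% in that order. Those lower in KD than in CON were Dcn, with a log2 fold change of -2.65, and Col1a1, with -0.75. The median of all genes tested was -0.29 in RE against KD and -0.27 in RE against CON. Cd14 made up most of the macrophage sums, with 161 to 247 TPM in RE, 206 to 234 in KD and 129.5 to 174 in CON. The 6 macrophage markers summed to 176 to 270.4 TPM in RE, 221 to 253 in KD and 134 to 182 in CON. In KD against CON, 2 of the 3 tested were higher, where 6.6% of all genes were. Adgre1 was listed at 0 and Ptprc was above 0 in 1 library only (0.0434 TPM, in RE 4). The 5 skeletal muscle markers summed to 7.35 to 15.2 TPM in RE, 8.13 to 10.2 in KD and 21.3 to 41.0 in CON. All 4 tested were lower in KD than in CON, where 3.61% of all genes were. The 5 endothelial and 4 epithelial markers were below 1 TPM in every library. The part of these markers in the results below was not tested.

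Antioxidant transcripts made up 10150 to 13660 TPM in RE, 9679 to 10670 in KD and 8389 to 11880 in CON. Averaged over the 12 libraries, Prdx5 (1358 TPM), Txn1 (768), Sod3 (672), Sod1 (615) and Gsto1 (608) were the most abundant, and Glrx3 (5.66), Gsta3 (13.1) and Txnrd2 (21.4) the least abundant of the 39 that reached a mean of 1 TPM and were tested. Gpx7, an endoplasmic reticulum peroxidase, was listed at 0 in 11 libraries and at 0.166 TPM in CON 1, and was not tested. The heat map of all libraries orders the 39 tested genes by role.

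**Figure D1:**
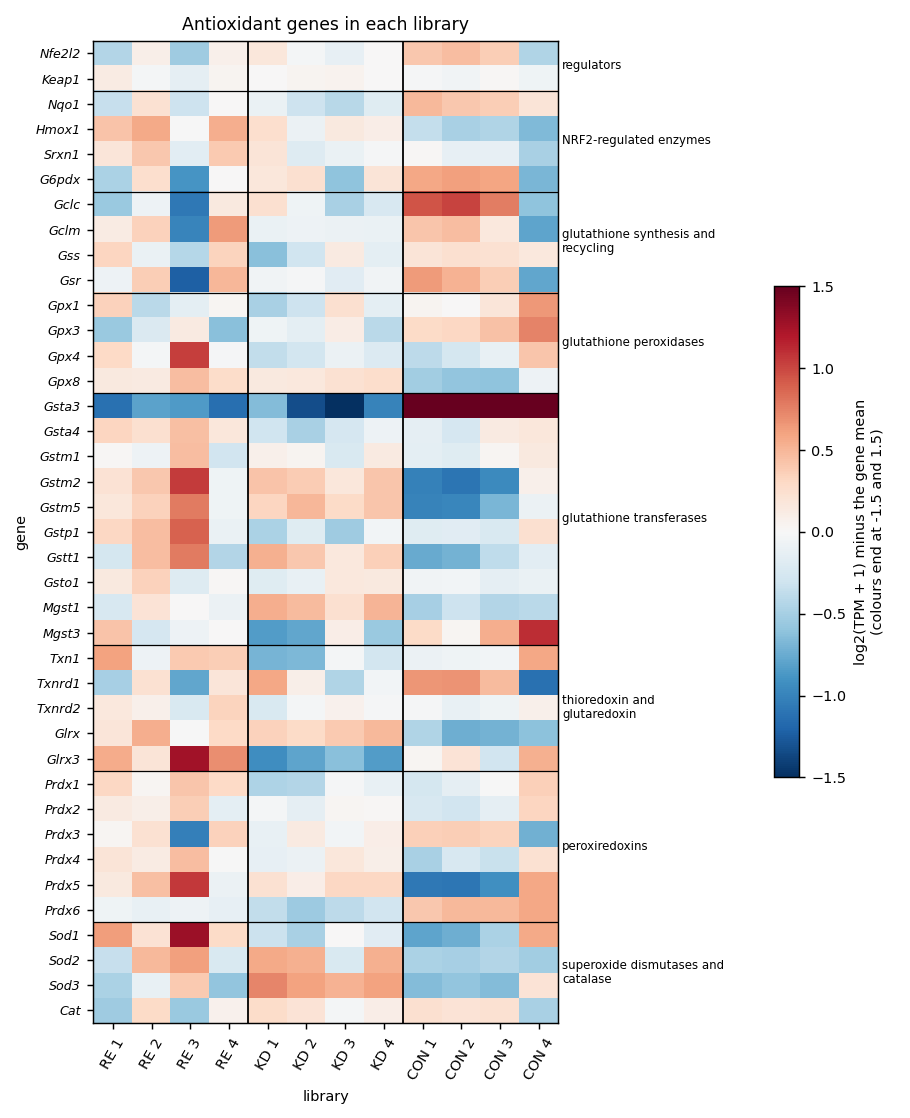
Level of each of the 39 tested antioxidant genes in each library, as log2(TPM + 1) minus the mean of that gene over the 12 libraries (red above, blue below; colours end at -1.5 and 1.5); columns are the 4 RE, 4 KD and 4 CON libraries and lines separate the groups and the roles. Gsta3 was far above its mean in all 4 CON libraries, and CON 4 was below CON 1, 2 and 3 for Txnrd1, Gclc, Gsr and G6pdx.

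In KD against CON, 9 of the 39 genes rose and 5 fell, where 6.6% of all genes tested rose and 3.61% fell. The genes that rose were Hmox1, Gpx8, the transferases Gstm2, Gstm5, Gstt1 and Mgst1, the glutaredoxin Glrx, and the superoxide dismutases Sod2 and Sod3. Those that fell were Nqo1, Gsta3, Mgst3, Glrx3 and Prdx6. The median log2 fold change of the 39 was -0.06, beside -0.01 over all genes tested. Without CON 4, RE 1 and RE 3, libraries whose long transcripts were low, 12 rose and 13 fell, where 14.2% of all genes rose and 25.1% fell. Under median-of-ratios scaling 3 rose (Hmox1, Mgst1 and Glrx) and 3 fell (Nqo1, Gsta3 and Prdx6), where 7.47% of all genes rose and 5.86% fell. With array weights, which give less weight to libraries far from their group, 12 rose and 17 fell, where 22.2% and 32.5% of all genes did. Leaving out any 1 of KD 1, KD 4, CON 2 and CON 3 left 5 rises (4.29%, 4.4%, 4.75% and 4.56% of all genes rose), and leaving out KD 2 or KD 4 left 2 falls (2.05% and 2.23% fell).

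In RE against KD, Glrx3 alone of the 39 rose and none fell, where 0.187% of all genes rose and 0.858% fell. At an unadjusted p under 0.05, limma had 8 of the 39 higher and 2 lower, beside 749 and 2549 of the 11774 genes tested. The median of all genes tested was -0.29 in RE against KD and -0.27 in RE against CON. Median-of-ratios scaling moved these medians to 0.00 and 0.01, so fold changes of RE are also given relative to the median of all genes. Genes of 1580 bases or fewer did not share this shift. Their median deviation from the gene means was 0.03 to 0.19 in RE, -0.20 to 0.07 in KD and -0.13 to 0.23 in CON. Values relative to the median can thus overstate rises of short genes in RE, and 26 of the 39 are under 2000 bases. Of all genes called, 17.9% were higher in RE against KD, and 41.0% were under median-of-ratios scaling; in RE against CON the shares were 42.7% and 54.0%. In RE against CON, 5 of the 39 rose (Hmox1, Gpx8, Gstm2, Gstm5 and Glrx) and 3 fell (Gpx3, Gsta3 and Prdx6), where 2.7% of all genes rose and 3.63% fell. The median of the 39 was 0.20 in RE against CON and 0.12 in RE against KD, above the medians of all genes in both. Without CON 4 alone, 16 rose and 8 fell in RE against CON, where 10.8% of all genes rose and 42% fell, and 7 rose and 2 fell in RE against KD, where 3.85% rose and 19.9% fell. Leaving out any 1 of CON 1, CON 2 and CON 3 left 3 rises in RE against CON (1.43%, 1.44% and 1.37% of all genes rose). A fit of RE and CON alone left 2 rises (Hmox1 and Glrx) and 2 falls (Gsta3 and Prdx6), where 1.3% rose and 2.17% fell. KD against CON shares the CON libraries with RE against CON and the KD libraries with RE against KD, so the values of the comparisons are set side by side below and no overlap between them is read.

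**Figure D2:**
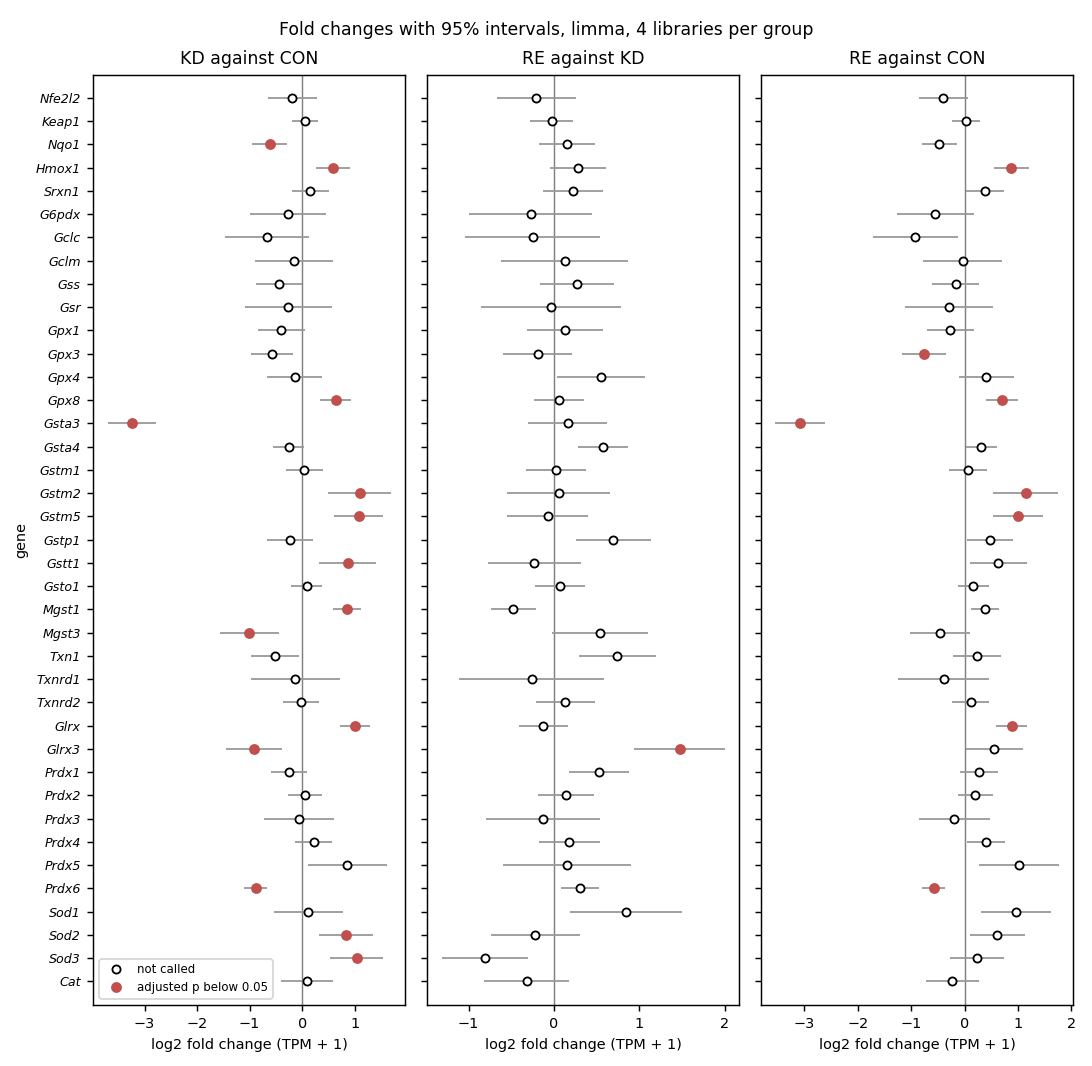
Log2 fold changes on the log2(TPM + 1) scale with 95% intervals from limma for the 39 tested genes, in KD against CON (left), RE against KD (middle) and RE against CON (right); filled points have an adjusted p below 0.05 and the vertical line marks 0. Gsta3 lies at -3.24 in KD against CON and at -3.08 in RE against CON, apart from the other 38 genes, and Glrx3 is the filled point of RE against KD.

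Neither regulator passed the test in any comparison. Nfe2l2 (chr2:75675513-75704641, minus strand) had 145, 209, 136 and 208 TPM in RE, 222, 192, 180.3 and 197 TPM in KD, and 260, 271, 254 and 144 TPM in CON. RE 1, RE 3 and CON 4 were its lowest libraries, CON 1, 2 and 3 lay above all others, and the groups overlapped. Its log2 fold change was -0.19 ± 0.21 in KD against CON (adjusted p = 0.692) and -0.40 ± 0.21 in RE against CON (adjusted p = 0.223, or -0.12 relative to the median of all genes). Without CON 4, RE 1 and RE 3 it fell in both, with log2 fold changes of -0.40 (adjusted p = 0.00642) in KD and -0.33 (adjusted p = 0.0435) in RE. The median of all genes tested in that fit was itself -0.16 in KD against CON and -0.22 in RE against CON. There, 25.1% and 24% of all genes fell. Keap1 (chr9:21229730-21239361, minus strand), the adaptor through which NRF2 is degraded, had 44.1, 39.7, 36.8 and 41.9 TPM in RE, 40.7, 41.7, 42.2 and 40.8 TPM in KD, and 40.1, 39.2, 41.2 and 38.7 TPM in CON. All 12 libraries of Keap1 lay between 36.8 and 44.1 TPM, and the 95% interval of its log2 fold change in KD against CON was -0.20 to 0.31.

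Among 4 enzymes known as NRF2 targets, Hmox1 rose and Nqo1 fell in KD. Hmox1 (chr8:75093621-75100589, plus strand), which degrades heme, had 118, 129.5, 86.95 and 127 TPM in RE, 104, 81.9, 96.3 and 92.96 TPM in KD, and 67.9, 61.8, 63.6 and 54.6 TPM in CON. Every RE and every KD library lay above every CON library. The log2 fold change of Hmox1 was 0.59 ± 0.15 in KD against CON (adjusted p = 0.0253), 0.87 ± 0.15 in RE against CON (adjusted p = 0.00363, or 1.15 relative to the median of all genes) and 0.28 ± 0.15 in RE against KD (adjusted p = 0.211, or 0.58 relative to the median). The call in KD against CON was lost on leaving out any 1 of KD 1, KD 3, KD 4, CON 2 and CON 3 (adjusted p = 0.0528 to 0.0885), while the call in RE against CON held when each library was left out.

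Nqo1 (chr8:107388225-107403206, minus strand), a quinone reductase, had 64.99, 96.9, 66.5 and 83.2 TPM in RE, 77.2, 66.4, 61.7 and 72.8 TPM in KD, and 117, 109.8, 107 and 94.98 TPM in CON. KD lay wholly below CON, and RE reached from within the KD range to just above the lowest CON library. Nqo1 fell by 0.62 ± 0.15 on the log2 scale in KD against CON (adjusted p = 0.0208). In RE against CON the log2 fold change was -0.47 ± 0.15 (adjusted p = 0.0911, or -0.20 relative to the median of all genes). It was called there with the length correction (adjusted p = 0.035). The call in KD against CON was lost on leaving out any 1 of KD 2, KD 3, KD 4, CON 1, CON 2 and CON 3 (adjusted p = 0.0504 to 0.0700). Of the remaining NRF2-regulated enzymes, Srxn1, the sulfiredoxin that restores overoxidised peroxiredoxins, had 112 to 166 TPM in RE, 109 to 144 in KD and 89.3 to 127 in CON. G6pdx, which supplies NADPH and is overlapped on the opposite strand by Ikbkg (30.2 TPM), had 96.5 to 212 TPM in RE, 117 to 211 in KD and 110.4 to 273 in CON. Neither was called with all libraries and TPM as deposited. With CON 4, RE 1 and RE 3 left out, G6pdx fell in KD against CON, with a log2 fold change of -0.59 (adjusted p = 0.0325), and Srxn1 rose in RE against CON by 0.47 (adjusted p = 0.023). Srxn1 also rose in RE against CON with all libraries under median-of-ratios scaling, by 0.68 (adjusted p = 0.00336), with quantile normalization (adjusted p = 0.0224) and with the length correction (adjusted p = 0.00118).

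None of the 4 genes of glutathione synthesis and recycling passed the test with all libraries and TPM as deposited, and all 4 had a negative log2 fold change in KD against CON, from -0.67 for Gclc to -0.16 for Gclm. Gclc and Gclm encode the catalytic and modifier subunits of glutamate-cysteine ligase, which makes the rate-limiting step of glutathione synthesis. Gclc had 19.99, 28.2, 13.7 and 33.1 TPM in RE, 35.4, 28.4, 21.01 and 25.1 TPM in KD, and 58.5, 61.1, 51.6 and 19.2 TPM in CON. CON 1, 2 and 3 lay above all RE and KD libraries, and CON 4 lay below all KD libraries. With all libraries the log2 fold change of Gclc was -0.67 ± 0.36 in KD against CON (adjusted p = 0.306) and -0.92 ± 0.36 in RE against CON (adjusted p = 0.142, or -0.65 relative to the median of all genes). Without CON 4, RE 1 and RE 3, Gclc fell in both, with log2 fold changes of -1.05 (adjusted p = 0.00131) in KD and -0.88 (adjusted p = 0.0136) in RE. Leaving out CON 4 alone also made the call in KD against CON (adjusted p = 0.0179). So did 3 fits that keep all 12 libraries. These used quantile normalization (adjusted p = 0.0369), the length correction (adjusted p = 0.0151) or array weights (adjusted p = 7.35e-05). With array weights all 4 genes of this role fell, where 32.5% of all genes did.

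Gclm had 22.1 to 70.1 TPM in RE, 41.6 to 42.3 in KD and 25.4 to 61.9 in CON. Gsr, the reductase that regenerates glutathione from its disulphide, had 12.9 to 45.2 TPM in RE, 28.04 to 31.2 in KD and 18.1 to 49.8 in CON. In both genes RE 3 and CON 4 were the lowest libraries of all, and the KD libraries lay close together. Without CON 4, RE 1 and RE 3, both fell in KD against CON, with log2 fold changes of -0.44 (adjusted p = 0.0123) for Gclm and -0.58 (adjusted p = 0.00255) for Gsr. Gss, glutathione synthetase, had 40.98 to 70.7 TPM in RE, 35.8 to 61.4 in KD and 62.1 to 65.8 in CON, with a log2 fold change of -0.43 ± 0.20 in KD against CON (adjusted p = 0.211). The Acss2 gene (24.8 TPM) overlaps it on the opposite strand, and the sources used here do not say whether counting used strand.

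Of the 4 tested glutathione peroxidases, Gpx8 rose in KD and RE against CON and Gpx3 fell in RE against CON. Gpx8 (chr13:113042753-113046410, minus strand), a peroxidase of the endoplasmic reticulum membrane, had 461, 455, 572 and 502 TPM in RE, 459, 463, 486 and 498 TPM in KD, and 289.9, 276, 273 and 396 TPM in CON. CON 4 was the highest CON library and still lay below every RE and KD library. The log2 fold change of Gpx8 was 0.64 ± 0.14 in KD against CON (adjusted p = 0.00942), 0.70 ± 0.14 in RE against CON (adjusted p = 0.0083, or 0.97 relative to the median of all genes) and 0.06 ± 0.14 in RE against KD (0.35 relative to the median). The call in KD against CON was lost under median-of-ratios scaling (adjusted p = 0.175), and that in RE against CON when these groups were fitted alone (adjusted p = 0.0528).

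Gpx3 (chr11:54902453-54910377, plus strand), the secreted glutathione peroxidase, had 102, 129, 166 and 97.01 TPM in RE, 144, 136, 163 and 113 TPM in KD, and 185, 187, 204 and 252 TPM in CON. All RE and KD libraries lay below all CON libraries, and RE and KD overlapped. The log2 fold change of Gpx3 was -0.76 ± 0.19 in RE against CON (adjusted p = 0.0295), which is -0.49 relative to the median of all genes, and -0.57 ± 0.19 in KD against CON (adjusted p = 0.0746, or 0.0467 with these groups fitted alone). The call in RE against CON was lost on leaving out any 1 of RE 1, RE 2, RE 4, CON 1, CON 2 and CON 3 (adjusted p = 0.0521 to 0.0901) and under median-of-ratios scaling (adjusted p = 0.298). Gpx1, the cytosolic selenium enzyme, had 393 to 664 TPM in RE, 373 to 617 in KD and 523 to 822 in CON, and was not called. Gpx4, which reduces lipid peroxides in membranes, had 181 to 382 TPM in RE, 143 to 174 in KD and 140.5 to 247 in CON and was not called either. Of its 50-base stretches, 68.9% occur in a pseudogene copy, so its level is uncertain.

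The glutathione transferases held 6 of the 14 genes called in KD against CON: Gstm2, Gstm5, Gstt1 and Mgst1 rose, Gsta3 and Mgst3 fell, and Gsta4, Gstm1, Gstp1 and Gsto1 were not called. Gsta3 (chr1:21240589-21265661, plus strand), an alpha-class transferase known in mouse for detoxifying the epoxide of aflatoxin, had 2.68, 3.58, 3.44 and 2.63 TPM in RE, 4.09, 2.18, 1.70 and 2.98 TPM in KD, and 30.4, 30.8, 34.3 and 38.2 TPM in CON. The 8 RE and KD libraries lay between 1.70 and 4.09 TPM and the CON libraries between 30.4 and 38.2 TPM. Its log2 fold change was -3.24 ± 0.21 in KD against CON (adjusted p = 1.42e-06) and -3.08 ± 0.21 in RE against CON (adjusted p = 2.31e-06, or -2.80 relative to the median of all genes). RE differed from KD by 0.16 (95% interval -0.30 to 0.62, or 0.45 relative to the median). Both falls were called in all 24 alternative settings, with the log2 fold change in KD against CON between -3.63 and -3.10.

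The mu-class genes Gstm2 and Gstm5 lie close together on chromosome 3 (chr3:107981702-107986453, minus strand, and chr3:107895821-107898686, plus strand). Gstm2 had 79.96, 90.8, 143 and 65.5 TPM in RE, 92.3, 89.5, 77.01 and 91.99 TPM in KD, and 33.5, 31.4, 34.9 and 72.7 TPM in CON. Gstm5 had 188, 213, 288 and 159.6 TPM in RE, 210.1, 237, 204 and 224 TPM in KD, and 82.8, 84.5, 104 and 157 TPM in CON. In both genes CON 4 was the highest CON library, RE 3 was the highest of all, and KD lay wholly above CON; Gstm2 in RE 4 lay below CON 4. Gstm2 rose by 1.09 ± 0.28 in KD against CON (adjusted p = 0.0254) and by 1.15 ± 0.28 in RE against CON (adjusted p = 0.0288, or 1.42 relative to the median of all genes). Gstm5 rose by 1.07 ± 0.22 in KD against CON (adjusted p = 0.0074) and by 1.00 ± 0.22 in RE against CON (adjusted p = 0.0158, or 1.27 relative to that median). The Gstm2 call in KD against CON was lost on leaving out any 1 of KD 1, KD 2, KD 4, CON 1, CON 2 and CON 3 (adjusted p = 0.0711 to 0.0821) and in RE against CON on leaving out any 1 of RE 1, RE 2, RE 3, CON 1, CON 2 and CON 3 (adjusted p = 0.0530 to 0.102). For Gstm5, the call in RE against CON was lost on leaving out any 1 of CON 1, CON 2 and CON 3 (adjusted p = 0.0512 to 0.0615), and under median-of-ratios scaling the calls in KD against CON were lost for Gstm2 (adjusted p = 0.118) and Gstm5 (adjusted p = 0.0743).

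Gstt1 (chr10:75783813-75798584, minus strand), a theta-class transferase, had 225, 372, 465 and 199 TPM in RE, 393, 359, 301 and 347 TPM in KD, and 160.1, 165, 207 and 243 TPM in CON. KD lay wholly above CON, while RE 1 and RE 4 lay within the CON range and RE 2 and RE 3 above it. Gstt1 rose by 0.86 ± 0.25 in KD against CON (adjusted p = 0.0464), close to the threshold. The call was lost on leaving out any 1 of KD 1, KD 2, KD 3, KD 4, CON 1, CON 2 and CON 3 (adjusted p = 0.0534 to 0.135) and under either other TPM filter (adjusted p = 0.0578 and 0.0549).

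Mgst1 (chr6:138140316-138156755, plus strand), a transferase and peroxidase of microsomal and outer mitochondrial membranes, had 229, 313, 274 and 255 TPM in RE, 397, 378, 322 and 389 TPM in KD, and 193, 219, 200.5 and 206 TPM in CON. KD lay above RE and RE above CON in every library. Mgst1 rose by 0.86 ± 0.12 in KD against CON (adjusted p = 0.000769), a call that held in all 24 alternative settings. The log2 fold change was -0.48 ± 0.12 in RE against KD (adjusted p = 0.0755, or -0.18 relative to the median of all genes) and 0.38 ± 0.12 in RE against CON (adjusted p = 0.0915, or 0.65 relative to that median). Mgst1 was called higher in RE against CON under median-of-ratios scaling, by 0.69 (adjusted p = 0.0442), and lower in RE against KD with the length correction (adjusted p = 0.0495). Mgst3 (chr1:167371966-167393841, minus strand), a relative of Mgst1 in the same membrane protein family, had 373, 232, 263 and 278 TPM in RE, 155, 161, 298 and 188 TPM in KD, and 338, 282, 403 and 599 TPM in CON. KD 3 lay within the CON range and CON 4 was the highest library. Mgst3 fell by 1.01 ± 0.26 on the log2 scale in KD against CON (adjusted p = 0.0264). That call was lost when these groups were fitted alone (adjusted p = 0.0507) and on leaving out any 1 of KD 1, KD 2, KD 4 and CON 3 (adjusted p = 0.0712 to 0.0931).

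The 4 transferases that were not called were abundant. Gsto1, of the omega class, had 526 to 769 TPM in RE, 532 to 674 in KD and 552 to 587 in CON. Gsta4, which conjugates the lipid peroxidation product 4-hydroxynonenal, had 285 to 346 TPM in RE, 180.5 to 239 in KD and 212 to 285 in CON. Its log2 fold change was 0.57 ± 0.13 in RE against KD (adjusted p = 0.0654, or 0.86 relative to the median), with every RE library above every KD library. Gstm1 had 112 to 189 TPM in RE, 116 to 149.8 in KD and 120.1 to 151 in CON, and the pi-class Gstp1 had 427 to 846 TPM in RE, 316 to 444 in KD and 390.3 to 542 in CON. Their values are uncertain because 23.1% of the 50-base stretches of Gstm1 and 62.3% of those of Gstp1 (in Gstp2 and a pseudogene) occur in other genes.

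Both glutaredoxins changed in KD against CON, in opposite directions, and neither thioredoxin nor its reductases were called. Glrx (chr13:75839868-75850154, plus strand), the cytosolic glutaredoxin that removes glutathione from proteins, had 247, 318, 217 and 269 TPM in RE, 277, 267, 286 and 306 TPM in KD, and 159.9, 131, 133 and 142 TPM in CON. Every RE and KD library lay above every CON library. Glrx rose by 1.00 ± 0.13 in KD against CON (adjusted p = 0.000439) and by 0.88 ± 0.13 in RE against CON (adjusted p = 0.00136, or 1.15 relative to the median of all genes). Both calls held in all 24 alternative settings. In RE against KD the log2 fold change of Glrx was -0.13 ± 0.13 (95% interval -0.41 to 0.16), or 0.17 relative to the median, so its sign depends on the scaling.

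Glrx3 (chr7:137437614-137468594, plus strand), a glutaredoxin with a role in handling iron-sulphur clusters, had 7.75, 5.84, 13.3 and 8.70 TPM in RE, 2.14, 2.46, 2.85 and 2.33 TPM in KD, and 5.11, 5.91, 3.88 and 7.62 TPM in CON. KD lay below all other libraries, and RE and CON overlapped. Glrx3 fell by 0.92 ± 0.24 on the log2 scale in KD against CON (adjusted p = 0.0311), rose by 1.48 ± 0.24 in RE against KD (adjusted p = 0.0236, or 1.77 relative to the median of all genes) and had 0.56 ± 0.24 in RE against CON (adjusted p = 0.166, or 0.83 relative to the median). Both comparisons use the KD libraries, so the fall and the rise are not independent of each other. The first call was lost with quantile normalization (adjusted p = 0.0867) and on leaving out any 1 of KD 1, KD 2, KD 4, CON 1 and CON 2 (adjusted p = 0.0684 to 0.0975) and the second on leaving out any 1 of RE 1, RE 4, KD 1, KD 2 and KD 4 (adjusted p = 0.0775 to 0.118). At 2.14 to 2.85 TPM in KD the gene was low, and 45.4% of its 50-base stretches occur in the gene Gm12669 (5.24 TPM), so reads could have been split between them.

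Txn1, cytosolic thioredoxin, had 1124, 701, 968 and 953 TPM in RE, 456, 464, 723 and 608 TPM in KD, and 697, 706, 716 and 1105 TPM in CON. CON 4 stood apart from the other CON libraries, and KD 3 lay above RE 2. Its log2 fold change was 0.74 ± 0.21 in RE against KD (adjusted p = 0.0923, or 1.03 relative to the median) and -0.52 ± 0.21 in KD against CON (adjusted p = 0.147, or 0.0277 with the length correction). Txnrd1, its cytosolic reductase, had 88.5 to 179 TPM in RE, 112 to 228 in KD and 69.9 to 244 in CON, and fell in KD against CON without CON 4, RE 1 and RE 3, with a log2 fold change of -0.56 (adjusted p = 0.0457). Txnrd2, the mitochondrial reductase, had 17.9 to 26.9 TPM in RE, 18.02 to 22.3 in KD and 19.5 to 22.4 in CON.

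Prdx6 was the only peroxiredoxin called with all libraries and TPM as deposited. Prdx6 (chr1:161240112-161251219, minus strand), which draws on glutathione and also has phospholipase activity, had 139, 134, 137 and 133 TPM in RE, 112, 99.1, 109.8 and 118 TPM in KD, and 191, 203, 204 and 217 TPM in CON. The groups did not overlap, with KD lowest, RE between and CON highest. Prdx6 fell by 0.89 ± 0.10 on the log2 scale in KD against CON (adjusted p = 0.00016), which held in all 24 alternative settings. In RE against CON it fell by 0.58 ± 0.10 (adjusted p = 0.00428), or a log2 fold change of -0.31 relative to the median of all genes. This call was lost under median-of-ratios scaling (adjusted p = 0.346) and with the length correction (adjusted p = 0.122). In RE against KD the log2 fold change of Prdx6 was 0.30 ± 0.10 (adjusted p = 0.129, or 0.60 relative to that median).

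Prdx5, found in mitochondria, peroxisomes and cytosol, was the most abundant of the 39 genes, with 1370, 1686, 2584 and 1163 TPM in RE, 1445, 1321, 1532 and 1532 TPM in KD, and 588, 581, 652 and 1846 TPM in CON. CON 1, 2 and 3 lay below all RE and KD libraries, and CON 4 lay above all KD libraries. With all libraries its log2 fold change was 0.86 ± 0.35 in KD against CON (adjusted p = 0.147). It was called with quantile normalization (adjusted p = 0.0411) and array weights (adjusted p = 1.1e-06). Without CON 4, RE 1 and RE 3 it rose by 1.26 (adjusted p = 0.000123), and by 1.21 (adjusted p = 0.000856) in RE against CON. The Trmt112 gene (67.2 TPM) overlaps Prdx5 on the opposite strand. Prdx3, the mitochondrial peroxiredoxin, had 89.2 to 233 TPM in RE, 169.6 to 201 in KD and 110.5 to 237 in CON, with RE 3 and CON 4 lowest. It fell in KD against CON without the 3 libraries, with a log2 fold change of -0.33 (adjusted p = 0.0148). Prdx4, of the endoplasmic reticulum, had 390.5 to 543 TPM in RE, 362 to 444 in KD and 280.5 to 462 in CON and rose without the 3 libraries, by 0.37 (adjusted p = 0.019) in KD and 0.41 (adjusted p = 0.0328) in RE against CON. The cytosolic Prdx1 (339 to 445 TPM in RE, 240.4 to 329 in KD and 277 to 427 in CON) and Prdx2 (417 to 597 TPM in RE, 420.2 to 472 in KD and 378 to 577 in CON) were called neither with TPM as deposited nor without the 3 libraries. Prdx2 overlaps Junb (139.5 TPM) on the opposite strand.

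The mitochondrial and extracellular superoxide dismutases rose in KD against CON. Sod2 (chr17:13006846-13040063, plus strand), the mitochondrial manganese enzyme, had 95.5, 171, 187 and 103 TPM in RE, 181, 177, 103 and 176 TPM in KD, and 87.6, 86.1, 89.2 and 84.7 TPM in CON. The CON libraries lay within 84.7 to 89.2 TPM, while KD 3 lay apart from the other KD libraries and RE split into RE 2 and RE 3 high and RE 1 and RE 4 low. Sod2 rose by 0.83 ± 0.24 in KD against CON (adjusted p = 0.0456) and had 0.61 ± 0.24 in RE against CON (adjusted p = 0.138, 0.89 relative to the median, and called with the length correction at an adjusted p of 0.0338). The call was lost on leaving out any 1 of KD 1, KD 2, KD 4, CON 1, CON 2 and CON 3 (adjusted p = 0.0966 to 0.139), under either other TPM filter (adjusted p = 0.0543 and 0.0541) and with the length correction (adjusted p = 0.118).

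Sod3 (chr5:52363791-52371418, plus strand), the secreted enzyme, had 452, 582, 824 and 414 TPM in RE, 1046, 954, 897 and 954 TPM in KD, and 400, 415, 398 and 723 TPM in CON. KD lay above all RE and all CON libraries, and RE and CON overlapped. Sod3 rose by 1.04 ± 0.23 in KD against CON (adjusted p = 0.0132), a call lost under median-of-ratios scaling (adjusted p = 0.0999) and with the length correction (adjusted p = 0.0927). In RE against KD its log2 fold change was -0.81 ± 0.23 (adjusted p = 0.0968, or -0.52 relative to the median of all genes); without CON 4, RE 1 and RE 3 it fell, with -0.97 (adjusted p = 0.0168), where 0.289% of all genes fell. Sod1, the cytosolic copper-zinc enzyme, is overlapped on the opposite strand by Scaf4 (19.4 TPM) and shares 23.1% of its 50-base stretches with Gm8566. Sod1 had 653 to 1369 TPM in RE, 401 to 564 in KD and 324 to 832 in CON, and rose without the 3 libraries by 0.42 (adjusted p = 0.0256) in KD against CON and 0.92 (adjusted p = 0.00381) in RE against CON. With all libraries Sod1 was called higher in RE against CON with quantile normalization (adjusted p = 0.0467) and with the length correction (adjusted p = 0.0151). Cat, the catalase of peroxisomes, had 27.01 to 48.98 TPM in RE, 39.4 to 48.7 in KD and 28.3 to 47.6 in CON and was called neither with TPM as deposited nor without the 3 libraries.

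**Figure D3:**
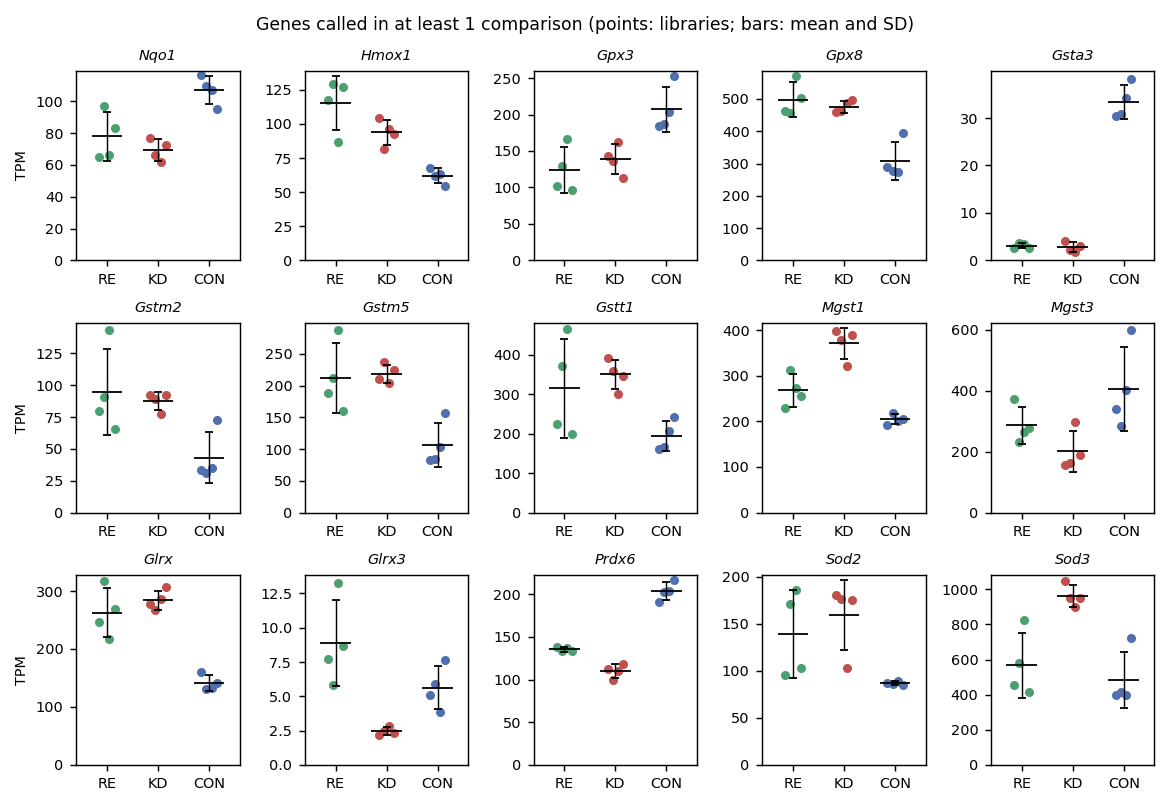
TPM of the 15 antioxidant genes called in at least 1 comparison, each axis starting at 0; points are single libraries, horizontal bars the mean and vertical bars the SD over 4 libraries of RE, KD and CON. Gsta3 is near 0 in RE and KD, Mgst1 and Sod3 are highest in KD, and Glrx3 and Prdx6 are lowest in KD.

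In CON 4, RE 1 and RE 3, and also in KD 3, levels of long transcripts were below those of the other libraries of the group. For each library the median deviation from the gene means was taken over 2269 genes with a transcript of 4682 bases or more (the median of a gene's principal transcripts in GENCODE vM21). It was -0.72 (RE 1), -0.11 (RE 2), -1.003 (RE 3) and -0.13 (RE 4) in the RE group, -0.21 for KD 3 and 0.07 to 0.57 for the other KD libraries, 0.47 to 0.71 for CON 1, 2 and 3, and -0.83 for CON 4. Of the 39 antioxidant genes, 13 have a transcript of at least 2000 bases; their median difference between CON 4 and the mean of CON 1, 2 and 3 was -0.71, and 10 of 13 were negative. For the 26 shorter genes the median difference was 0.48, and 21 of 26 were positive. The differences ran from -1.72 for Txnrd1 to 1.60 for Prdx5. Spearman's rho of the difference with transcript length was -0.64 for CON 4, -0.56 for RE 1 and -0.57 for RE 3, as descriptions over 39 genes that share 1 library each. Gclc, Gclm, Gsr, G6pdx and Txnrd1 are all among the 13 longer genes. Not every gene followed length: Prdx3, with 1478 bases, was low in CON 4 (-1.08), and Sod3, with 3738 bases, was high (0.84). KD 3 was kept where the 3 libraries were left out. Leaving out KD 3 alone gave 7 rises and 4 falls in KD against CON, where 6.85% of all genes rose and 3.92% fell.

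**Figure D4:**
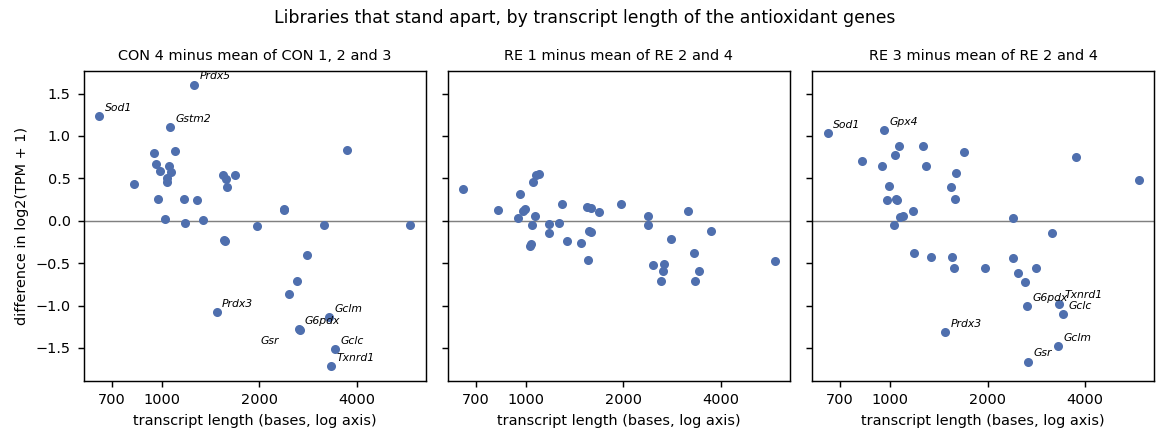
Difference in log2(TPM + 1) of CON 4 from the mean of CON 1, 2 and 3 (left), and of RE 1 (middle) and RE 3 (right) from the mean of RE 2 and RE 4, against transcript length in bases on a log axis, for the 39 tested genes; genes beyond 0.95 in size are named. Most long genes lie below 0 in all 3 panels, with medians of -0.71, -0.48 and -0.62 for the 13 genes of at least 2000 bases.

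Without CON 4, RE 1 and RE 3, 11 more genes were called in KD against CON. Nfe2l2, G6pdx, Gclc, Gclm, Gsr, Gpx3, Txnrd1 and Prdx3 fell, with log2 fold changes between -1.05 (Gclc) and -0.33 (Prdx3), and Prdx4, Prdx5 and Sod1 rose. All 14 genes called with all libraries and TPM as deposited were called again in the same direction. Among the 39 in RE against CON, 10 rose and 5 fell, where 8.13% of all genes rose and 24% fell; in RE against KD, Glrx3 rose by 1.25 and Sod3 fell, where 0.136% rose. Fewer libraries entered this fit, and the share of all genes called was also higher in both comparisons with CON. The median of all genes tested was -0.16 in KD against CON and -0.22 in RE against CON. Libraries kept still differed in the median deviation of long transcripts. This was 0.47 to 0.71 in CON, -0.21 (KD 3) to 0.57 in KD, and -0.11 (RE 2) and -0.13 (RE 4) in RE. Its part in the added calls was not tested.

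**Figure D5:**
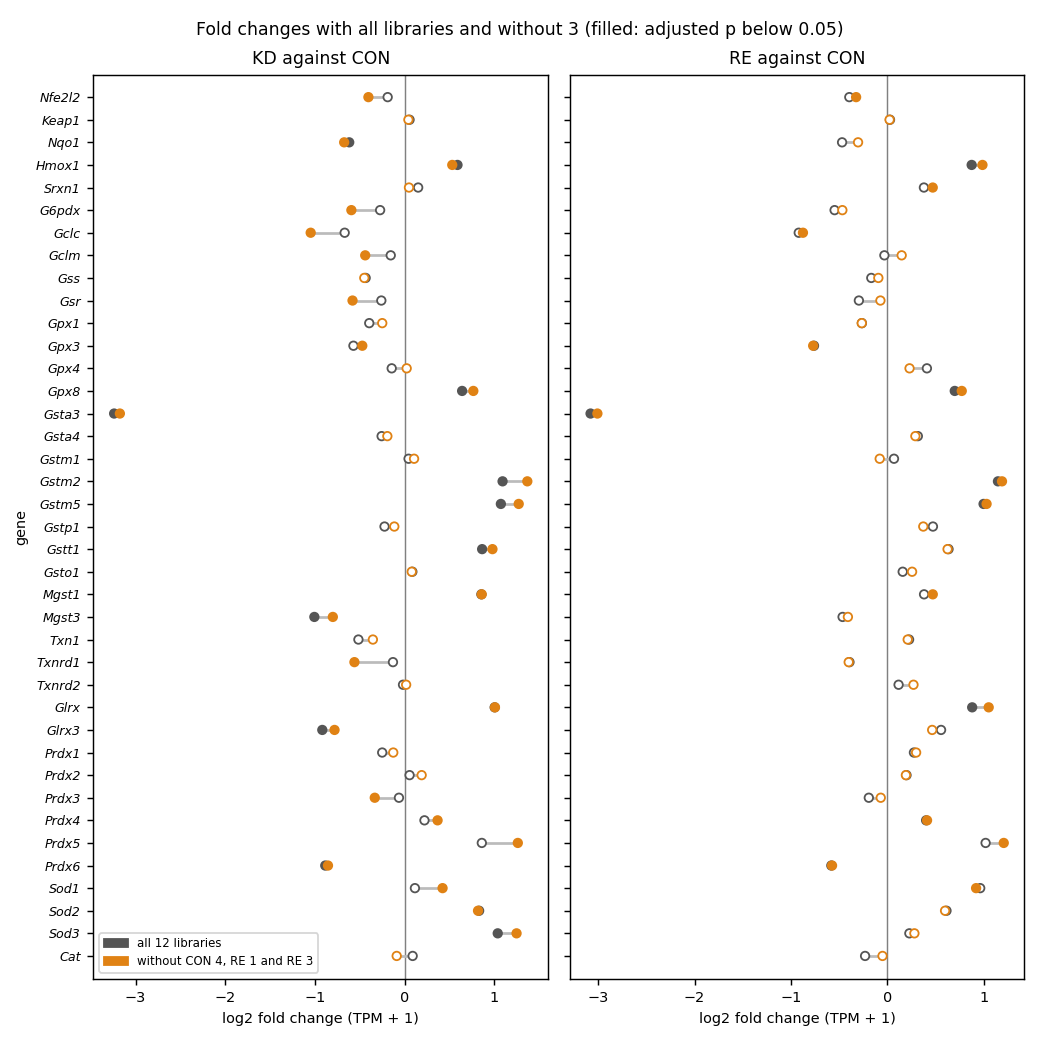
Log2 fold changes of the 39 tested genes in KD against CON (left) and RE against CON (right) with all 12 libraries (grey) and without CON 4, RE 1 and RE 3 (orange); filled points have an adjusted p below 0.05 and a line joins the values of a gene. Gclc in KD against CON lies at -0.67 with all libraries and at -1.05 without the 3, and Gsta3 lies at -3.24 and -3.18.

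Other genes of the same pathways, from lists that share no gene with the 40, were counted in the same fit; their values in RE carry the shift of the median of all genes given above. Of 10 tested partners and degraders of NRF2, 1 rose and none fell in KD against CON, where 6.6% of all genes rose and 3.61% fell. This was Maff, a small MAF partner of NRF2, with 133 ± 6.82 TPM in KD and 86.8 ± 9.39 in CON (log2 fold change 0.62 ± 0.18, adjusted p = 0.0489). In RE against CON, Sqstm1, whose p62 protein draws KEAP1 into autophagy, fell (log2 fold change -0.59 ± 0.14, adjusted p = 0.0296). Of 26 other NRF2-regulated genes, 1 rose and 3 fell in KD against CON, beside the same 6.6% and 3.61% of all genes. Slc7a11, which imports cystine for glutathione synthesis, had 0.611, 0.955, 1.08 and 1.09 TPM in RE, 1.30, 2.11, 1.36 and 1.18 TPM in KD, and 18.98, 21.2, 14.97 and 6.02 TPM in CON. CON lay above all other libraries, with CON 4 lowest among them. The log2 fold change of Slc7a11 was -2.60 ± 0.31 in KD against CON (adjusted p = 0.000228) and -2.96 ± 0.31 in RE against CON (adjusted p = 9.88e-05).

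The reductase gene Ptgr1 (-0.60 ± 0.12, adjusted p = 0.00635) and Esd, an S-formylglutathione hydrolase (-0.61 ± 0.11, adjusted p = 0.00291), also fell in KD against CON, and Me1, an NADPH-forming malic enzyme, rose (0.65 ± 0.19, adjusted p = 0.0432). Esd was the single gene of these lists called in RE against KD, where it rose by 0.69 ± 0.11 (adjusted p = 0.0156), with 882, 822, 763 and 888 TPM in RE, 503, 461, 578 and 533 TPM in KD, and 787, 839.8, 769 and 768 TPM in CON. All KD libraries lay below all others. Cbr3 (0.98) and Tkt (0.46) rose in RE against CON, and Slc7a11 and Idh1 (-1.33), an NADPH-forming isocitrate dehydrogenase, fell.

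Among 13 other tested glutathione transferases, 4 rose and 2 fell in KD against CON (all genes: 6.6% and 3.61%). Gstm7 (2.52 ± 0.41, adjusted p = 0.0018), Gsto2 (1.74 ± 0.42, adjusted p = 0.0192) and Gstt3 (0.88 ± 0.23, adjusted p = 0.0309) rose, next to Gstm6, which was below 5 TPM. The alpha-class Gsta1 and Gsta2, named after their values were seen because both were below 5 TPM on average, fell: Gsta1 had 4.40, 6.29, 3.49 and 7.35 TPM in RE, 0.732, 1.14, 3.77 and 1.996 TPM in KD, and 5.12, 6.83, 8.09 and 7.94 TPM in CON. The log2 fold changes in KD against CON were -1.55 ± 0.31 for Gsta1 (adjusted p = 0.0073) and -1.74 ± 0.32 for Gsta2 (adjusted p = 0.00394). KD lay wholly below CON in Gsta1, and RE overlapped both. Gstm7, Gsto2 and Gstm6 rose in RE against CON and none of the 13 fell, where 2.7% of all genes rose and 3.63% fell. Gsto2 had 67.8 TPM in CON 4, above RE 1 (54.6) and RE 4 (58.9), and 14.9 to 21.2 in the other CON libraries.

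Of 12 tested genes of glutathione supply and breakdown, 1 rose and 1 fell in KD against CON (all genes: 6.6% and 3.61%), and 1 rose and 6 fell in RE against CON (all genes: 2.7% and 3.63%). Ggct, which acts in glutathione breakdown, rose in both (0.65 in KD and 0.90 in RE), and Ggt7, named after its values were seen, fell in both (-1.06 in KD and -1.07 in RE). Among genes averaging at least 5 TPM, the largest falls of this list in RE against CON were Cth, which makes cysteine (-2.25), Chac1, which degrades glutathione (-2.25), and the amino acid transporter genes Slc1a4 (-1.46) and Slc3a2 (-0.69), whose product pairs with that of Slc7a11. The adjusted p values of these 4 were 0.00958, 0.00449, 0.0224 and 0.00386. Of 15 other thioredoxin-fold and repair genes, 1 rose and 1 fell in KD against CON (all genes: 6.6% and 3.61%) and 2 fell in RE against CON (all genes: 3.63%). Sesn1, a sestrin (1.24 ± 0.28, adjusted p = 0.0148), rose and Msra, a methionine sulphoxide reductase (-1.14 ± 0.27, adjusted p = 0.0184), fell in KD against CON. The sestrin genes Sesn2 (-1.93, adjusted p = 0.0477) and Sesn3 (-2.06, adjusted p = 0.0101) fell in RE against CON.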

How the data were processed

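The authors deposited 1 table of TPM values for 23184 gene symbols in 12 libraries; per the submitters' processing notes the tools were Trim Galore 0.6.6, TopHat2 2.1.1 and Cufflinks 2.2.1 on mm10, and the step to TPM, the annotation and the use of strand are not given. The 4 columns named WT were taken as the CON libraries, whose genotype label is WT; their numbers are names only. The labels do not say that replicates were separate cultures, so p-values reflect only how far these samples spread, and that spread may be technical.

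Genes averaging 1 TPM or more (11774) were fitted as log2(TPM + 1), a scale that understates changes of low genes, with group means in limma 3.58.1 under R 4.3.3 (two-sided moderated test, mean-variance trend), a fit tested on simulated data. P-values were adjusted over these genes by the Benjamini-Hochberg method and called below 0.05; every adjusted p for a gene comes from this limma test. Genes called, and Nfe2l2 and Keap1, are given in every library; other lists name up to 4 called genes per direction with a mean of at least 5 TPM. The antioxidant genes and all lists, markers and tests were chosen with earlier results of these data known.

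Alternatives changed the pseudocount (0.1), the filter (none, or 5 TPM) or the scaling (median-of-ratios, or quantile normalization). Others changed the spread (robust moderation, array weights, or the compared groups alone) or subtracted a trend on transcript length (loess, span 0.5). The replicate number was added as a block for KD and RE, with none for CON. Libraries were also dropped, each in turn, and CON 4, RE 1 and RE 3 together. Gene positions (GRCm38), transcript lengths and stretches of 50 bases shared between genes come from GENCODE vM21, and promoters from RefSeq (GRCm38.p6).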

Additional observations from a re-analysis of the deposited data

Results flagged for a closer look

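Within each group of 4 libraries, the highest or lowest library of an antioxidant gene was singled out where its gap to the nearest other library took a share of the group's range above Dixon's 95% critical value for 4 samples. This was so in 15 of 117 groups, where chance gives about 1 in 20; 12 of the 15 were CON 4 and the other 3 were KD 3. In CON 4, 6 genes were low: Nfe2l2 with 143.8 TPM (254.4 to 270.8 in the other CON libraries), G6pdx with 110.4 (268 to 272.9), Gclc with 19.24 (51.59 to 61.12), Txnrd1 with 69.9 (212.7 to 244.4), Prdx3 with 110.5 (231.6 to 236.6) and Cat with 28.31 (46.26 to 47.57). The other 6 were high in CON 4: Gpx8 with 395.7 TPM (273.1 to 289.9 in the other CON libraries), Gstm2 with 72.66 (31.45 to 34.94), Gstp1 with 542.1 (390.3 to 407.2), Txn1 with 1105 (697.3 to 716.4), Prdx5 with 1846 (581.2 to 651.7) and Sod3 with 723.4 (398.1 to 414.7). In KD 3, all 3 were low: G6pdx with 117 TPM (200.5 to 211.1 in the other KD libraries), Gstm2 with 77.01 (89.54 to 92.3) and Sod2 with 103.4 (175.8 to 180.7). The median deviation of long transcripts, -0.83 in CON 4 and -0.21 in KD 3, was the lowest of each group, and its part in these values was not tested.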

How the results depend on the processing

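Depth is unknown, so the precision of low genes such as Glrx3 rests on the spread of 4 libraries alone. None of the 23 calls of antioxidant genes reversed under an alternative; over these calls and the alternatives, a call was lost 94 times and otherwise kept. Wdr62 in KD against CON stayed called in the 23 alternatives that tested it, with a log2 fold change of -1.88 to -1.56 when single libraries were left out. In KD against CON, Gsta3, Mgst1, Glrx and Prdx6 were called in all 24 alternatives, as were Hmox1, Gsta3 and Glrx in RE against CON.

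Counts moved more. The 9 rises in KD against CON became 3 under median-of-ratios scaling (7.47% of all genes rose). They became 5 to 10 when single libraries were left out (4.27% to 9.48%), with 5 without KD 1, KD 4, CON 2 or CON 3. The 5 falls became 3 under median-of-ratios scaling (5.86% of all genes fell) and 17 with array weights (32.5%). They became 13 without CON 4, RE 1 and RE 3 (25.1%). When single libraries were left out they became 2 to 6 (2.05% to 11%), with 2 without KD 2 or KD 4. In RE against KD, the 1 rise became 12 with array weights (11.6% of all genes rose) and 2 with the length correction (0.864%). When single libraries were left out it became 0 to 7 (0.017% to 3.85%). The largest count, 7, came on dropping CON 4 (3.85%). Dropping RE 1 left 0 rises (0.0255%), as did dropping any 1 of RE 4, KD 1, KD 2 and KD 4 (0.017% each). The count of 0 falls became 4 with array weights (33.5% of all genes fell) and 1 with the length correction (1.08%). It became 1 without CON 4, RE 1 and RE 3 (0.289%), and 0 to 2 when single libraries were left out (0.0934% to 19.9%). In RE against CON, the 5 rises became 2 when only those groups were fitted (1.3% of all genes rose) and 17 with array weights (12.2%). They became 8 with the length correction (7.77%) and 10 without CON 4, RE 1 and RE 3 (8.13%). When single libraries were left out they became 3 to 16 (1.37% to 10.8%). They were 3 without CON 1, CON 2 or CON 3 and 16 without CON 4. The 3 falls became 1 under median-of-ratios scaling (4.28% of all genes fell) and 8 with array weights (42%). They became 5 without CON 4, RE 1 and RE 3 (24%). When single libraries were left out they became 2 to 8 (2.17% to 42%), with 8 without CON 4. The cause was not tested. Of all genes called in KD against CON, 64.6% were higher, and 56.0% under median-of-ratios scaling or quantile normalization and 55.1% with the length correction; in RE against KD quantile normalization and the length correction gave 40.9% and 44.6%, and in RE against CON 57.1% and 58.3%.

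Same-numbered KD and RE libraries did not consistently deviate together from their group means. Their correlations were -0.55, 0.65, 0.24 and -0.25 for numbers 1 to 4, and not every library correlated best with its own number. KD 3 correlated at 0.64 with RE 1 and at -0.69 with RE 2. Libraries also differ by transcript length, so the correlations cannot show whether any were prepared together, and CON was not checked. With the replicate block, set for KD and RE only, there were 5 rises and 3 falls in KD against CON. There, 4.9% of all genes rose and 2.43% fell. In RE against KD there were 0 rises, where 0.017% of all genes rose. The replicate block with the length correction, an alternative chosen after seeing the data, gave 8 falls in KD against CON (7.6% of all genes fell).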

Other observations

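Genes of the aryl hydrocarbon receptor, a transcription factor that senses planar aromatic compounds and shares targets such as Nqo1 with NRF2, were counted in the same limma fit. Of 7 tested in KD against CON, 1 rose and 1 fell, where 6.6% of all genes rose and 3.61% fell; values in RE carry the shift of the median of all genes, -0.27 against CON and -0.29 against KD. Aldh3a1, an aldehyde dehydrogenase known as a target of this receptor, had 17.99, 10.3, 13.01 and 15.3 TPM in RE, 7.25, 5.79, 9.52 and 6.11 TPM in KD, and 287, 308, 320 and 269 TPM in CON. All CON libraries lay far above all others, and KD lay below RE. Its log2 fold change was -5.20 ± 0.19 in KD against CON (adjusted p = 1.23e-08), -4.32 ± 0.19 in RE against CON (adjusted p = 1.14e-07) and 0.89 ± 0.19 in RE against KD (adjusted p = 0.0514). Ahrr, the repressor of the receptor, named after its values were seen, rose in KD against CON (1.34 ± 0.22, adjusted p = 0.00184), and Tiparp, another known target, fell in RE against CON (-1.08 ± 0.27, adjusted p = 0.0355). The receptor's core motif GCGTG, on either strand, occurred in a promoter of 19 of the 34 antioxidant genes with one (55.9%) and of 35.2% of the 27025 genes of the RefSeq table, which describes letters and not binding.

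Of 13 genes listed as oxidant sources, 5 were tested. Of these, 2 rose and none fell in KD against CON, where 6.6% of all genes rose and 3.61% fell. Among the phagocyte NADPH oxidase genes of the list, Cyba was listed at 0 in every library, and Cybb and Ncf1 were below 1 TPM throughout. Nos2, the inducible nitric oxide synthase, had 28.4, 64.2, 42.2 and 42.98 TPM in RE, 70.6, 47.7, 36.2 and 46.8 TPM in KD, and 3.07, 4.38, 5.54 and 8.70 TPM in CON. Every RE and KD library lay above every CON library. The log2 fold change of Nos2 was 3.03 ± 0.31 in KD against CON (adjusted p = 5.93e-05) and 2.84 ± 0.31 in RE against CON (adjusted p = 0.000121). Ncf4, a subunit of the phagocyte NADPH oxidase, had 15.9, 17.4, 23.8 and 12.7 TPM in RE, 26.99, 28.1, 30.7 and 31.6 TPM in KD, and 5.25, 5.54, 7.04 and 29 TPM in CON, with CON 4 far above the other CON libraries (log2 fold change 1.60 ± 0.42 in KD against CON, adjusted p = 0.0285).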
